A study of Homo sapiens with 15 samples.

Results

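The genes described here are ligands, receptors, SMADs, inhibitors and direct targets of the TGF-beta and BMP pathways, from a list of 47 symbols. They were found by matching each Ensembl identifier of the expression table to its symbol. This list and the further gene lists below were chosen with earlier results of these data known. Their counts beside the shares of all genes are therefore description only. Of the 47, 45 have a row in the table of 16604 genes, and INHBA and FST are not analysed here. The samples are cultures of OVCAR4, an established human high-grade serous ovarian cancer cell line, and of platinum-resistant lines made from it, with 3 biological replicates per line and 15 samples in all. Ovcar4Parental is sensitive to both platinum drugs. Ov4Cis was selected in rising doses of cisplatin and Ov4Carbo in rising doses of carboplatin, until the concentration giving 50% inhibition had increased between 2 and 10 times. Ov4Carbo4 and Ov4Carbo7 each grew from a single Ov4Carbo cell, so each is 1 clone of that population, and Ov4Cis and Ov4Carbo are each 1 selected culture. All lines were grown in DMEM with 10% serum, which itself can hold TGF-beta and BMP ligands, and with penicillin and streptomycin. The labels name no added ligand or pathway inhibitor for any line.

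In the TGF-beta branch, a latent ligand held by an LTBP protein is released in the matrix, binds a type II receptor and then a type I receptor, and the type I receptor phosphorylates SMAD2 and SMAD3. In the BMP branch, BMP and some GDF ligands act through other type I receptors on SMAD1, SMAD5 and SMAD9, and secreted antagonists such as noggin and gremlin bind the ligand before it reaches a cell. Both sets of SMADs enter the nucleus with SMAD4. There the ID genes are classical direct targets of the BMP branch, and SMAD6 and SMAD7 are targets that feed back to block the receptors. In epithelial cells the TGF-beta branch is best known for growth arrest and, in many carcinomas, for a shift to a mesenchymal state.

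ID1 to ID4 code for helix-loop-helix proteins without a DNA-binding region, which hold other helix-loop-helix factors off DNA. All 4 were lower in the clone Ov4Carbo7 than in the clone Ov4Carbo4, with values given further on, and the 250 bases before their start sites are shown here so that their sequence can be set beside those values. The sequences are from RefSeq (GRCh38.p14), written 5′ to 3′ on the gene's strand, and capitals mark the SMAD-binding core CAGAC or its reverse complement GTCTG.
ID1: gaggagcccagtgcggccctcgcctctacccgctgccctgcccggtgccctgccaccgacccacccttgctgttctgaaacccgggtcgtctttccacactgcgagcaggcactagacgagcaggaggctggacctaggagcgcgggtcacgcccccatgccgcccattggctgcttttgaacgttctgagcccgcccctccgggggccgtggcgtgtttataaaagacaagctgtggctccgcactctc
ID2: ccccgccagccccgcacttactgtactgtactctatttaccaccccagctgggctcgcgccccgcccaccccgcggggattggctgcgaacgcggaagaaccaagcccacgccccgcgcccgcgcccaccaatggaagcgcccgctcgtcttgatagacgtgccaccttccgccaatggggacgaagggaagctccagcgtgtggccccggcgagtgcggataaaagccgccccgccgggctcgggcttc
ID3: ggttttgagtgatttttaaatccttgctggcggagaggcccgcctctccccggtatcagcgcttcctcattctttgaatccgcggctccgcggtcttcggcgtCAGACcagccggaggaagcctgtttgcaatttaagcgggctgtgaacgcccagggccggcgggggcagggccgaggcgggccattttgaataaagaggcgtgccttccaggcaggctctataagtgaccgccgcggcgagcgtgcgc
ID4: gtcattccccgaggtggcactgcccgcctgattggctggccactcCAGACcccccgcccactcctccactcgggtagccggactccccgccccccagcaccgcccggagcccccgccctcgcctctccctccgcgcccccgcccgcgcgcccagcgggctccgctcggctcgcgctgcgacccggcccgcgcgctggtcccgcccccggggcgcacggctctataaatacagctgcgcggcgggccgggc

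The ID1 stretch lies at chr20:31605039-31605288 on the plus strand and the ID2 stretch at chr2:8681806-8682055 on the plus strand. The ID3 stretch lies at chr1:23559502-23559751 on the minus strand and the ID4 stretch at chr6:19837120-19837369 on the plus strand. ID3 and ID4 each held 1 copy of the SMAD-binding core, and ID1 and ID2 held 0. The GC-rich SMAD box GGCGCC, which is its own reverse complement, was found 0 times in the 4 stretches. Of the 35116 promoters of this length in the RefSeq table, 38.0% held the core on either strand and 16.4% held the GC-rich box. Of the 45 genes, 39 matched an entry, with 70 start sites together, and 19 of these genes held the core and 14 the box in at least 1 of their start sites. These counts are per gene and the shares of all promoters are per start site, so they cannot be set side by side. The 30 bases after the start site were found in a reference transcript of the gene for ID1, ID2 and ID3 and were not found for ID4, so the ID4 start is as RefSeq gives it. A match describes the letters only.

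The label of a serous ovarian line was checked against 14 lineage genes, of which 13 have a row: PAX8 line means lay between 5.85 and 6.74 log2 RPKM and SOX17 between 6.65 and 7.76, while WT1 was low in every line (-5.07 to -1.52). Of the 13, line means under 0 log2 RPKM were found for 6 in Ov4Cis, 4 in Ov4Carbo7, 3 in Ov4Carbo4, and 2 each in Ov4Carbo and the parental line. Against the parental line, by the rule given in the next paragraph, 8 of the 13 were called lower in Ov4Cis, 7 in Ov4Carbo7, 4 in Ov4Carbo4 and 0 in Ov4Carbo. In each line except Ov4Carbo7, with 0, 1 was called higher. Of all genes, 7.41%, 7.75%, 7.7% and 6.93% were called lower in Ov4Cis, Ov4Carbo7, Ov4Carbo4 and Ov4Carbo, and 8.46%, 9.26%, 7.43% and 5.76% higher. The median log2 fold changes of the 13 in Ov4Cis, Ov4Carbo, Ov4Carbo4 and Ov4Carbo7 were -1.82, -0.05, -0.34 and -1.10, beside 0.04, 0.03, 0.07 and 0.02 for all genes. The part of these lineage differences in the results was not tested. The number of reads per sample is unknown, because the deposited values are already scaled to RPKM. Each sample's median was 2.77 log2 RPKM and its lowest value lay between -8.18 and -7.68, so a value below about 0 is low for this table, and fold changes that rest on such values are uncertain in size. In a culture, a change in all cells and a change in the share of cells that express a gene cannot be told apart. The sample titles carry 2 number series. Ov4Carbo replicate 1 and every sample of both clones carry numbers of the first series, and the remaining samples carry those of the second. The labels do not say what the series are, and only Ov4Carbo spans both, so comparisons of a clone with the parental line or Ov4Cis cross them while Ov4Carbo7 against Ov4Carbo4 does not. Comparisons of a clone with Ov4Carbo cross them in part, because Ov4Carbo replicates 2 and 3 are of the second series. Replicate spread was taken as the root mean square difference between 2 replicates of a line, averaged over its pairs, on the log2 scale. Over the members it was 0.74 in the parental line, and 0.58, 0.73, 0.37 and 0.28 in Ov4Cis, Ov4Carbo, Ov4Carbo4 and Ov4Carbo7. Over all genes it was 0.48, 0.41, 0.69, 0.34 and 0.39 in the same order, largest in Ov4Carbo. Ov4Carbo replicate 1 lay more than 1 log2 unit from the mean of the other Ov4Carbo replicates for 4 members (TGFBR2, GDF15, NOG and GREM1, or 8.89%), and for 10.1% of all genes.

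Each pair of lines was compared gene by gene with limma, and a gene was called at a Benjamini-Hochberg adjusted p under 0.05 over all 16604 genes and a log2 fold change of 1 or more in either direction. Members were called in both directions in every resistant line. In none of the 10 comparisons were 14 of the 45 called, among them SMAD1 to SMAD5, BMPR2 and the activin type II receptors. In Ov4Cis, 11 of the 45 members were called against the parental line, 6 higher and 5 lower, where 15.9% of all genes were called, 8.46% higher and 7.41% lower. In Ov4Carbo, 13 were called, 3 higher and 10 lower, where 12.7% of all genes were called, 5.76% higher and 6.93% lower. In Ov4Carbo4, 16 were called, 11 higher and 5 lower, where 15.1% of all genes were called, 7.43% higher and 7.7% lower. In Ov4Carbo7, 14 were called, 3 higher and 11 lower, where 17% of all genes were called, 9.26% higher and 7.75% lower. More of the called members were higher than lower in Ov4Carbo4, but with a term for the title series, the 2 number series of the sample titles, 6 were higher and 8 lower. Only Ov4Carbo spans both series, so here and below this term rests on Ov4Carbo replicate 1 against Ov4Carbo replicates 2 and 3. It cannot separate a series effect from a deviation of that 1 sample. Calls in Ov4Carbo and Ov4Carbo7 were more often lower than higher. In Ov4Cis the balance was 4 higher and 9 lower without parental replicate 1, and 5 higher and 6 lower without Ov4Cis replicate 2. Without parental replicate 1 the calls in Ov4Carbo4 were 7 higher and 5 lower and those in Ov4Carbo 1 higher and 11 lower, and without parental replicate 3 those in Ov4Carbo were 5 higher and 8 lower. The members' median log2 fold changes were -0.11, 0.01, 0.28 and -0.43 in Ov4Cis, Ov4Carbo, Ov4Carbo4 and Ov4Carbo7, beside 0.04, 0.03, 0.07 and 0.02 for all genes. Of the 45, 26 were called in at least 1 resistant line, where 30.5% of all genes were. Restricting the test to genes of mean log2 RPKM 1 or more left 6 calls in Ov4Cis and 7 in Ov4Carbo. That fit kept 37 members and 12037 genes in all, of which 8.21% and 6.06% were called. Adding 1 to the RPKM before the logarithm left 8 in Ov4Carbo, where 4.76% of all genes were called.

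**Figure D1:**
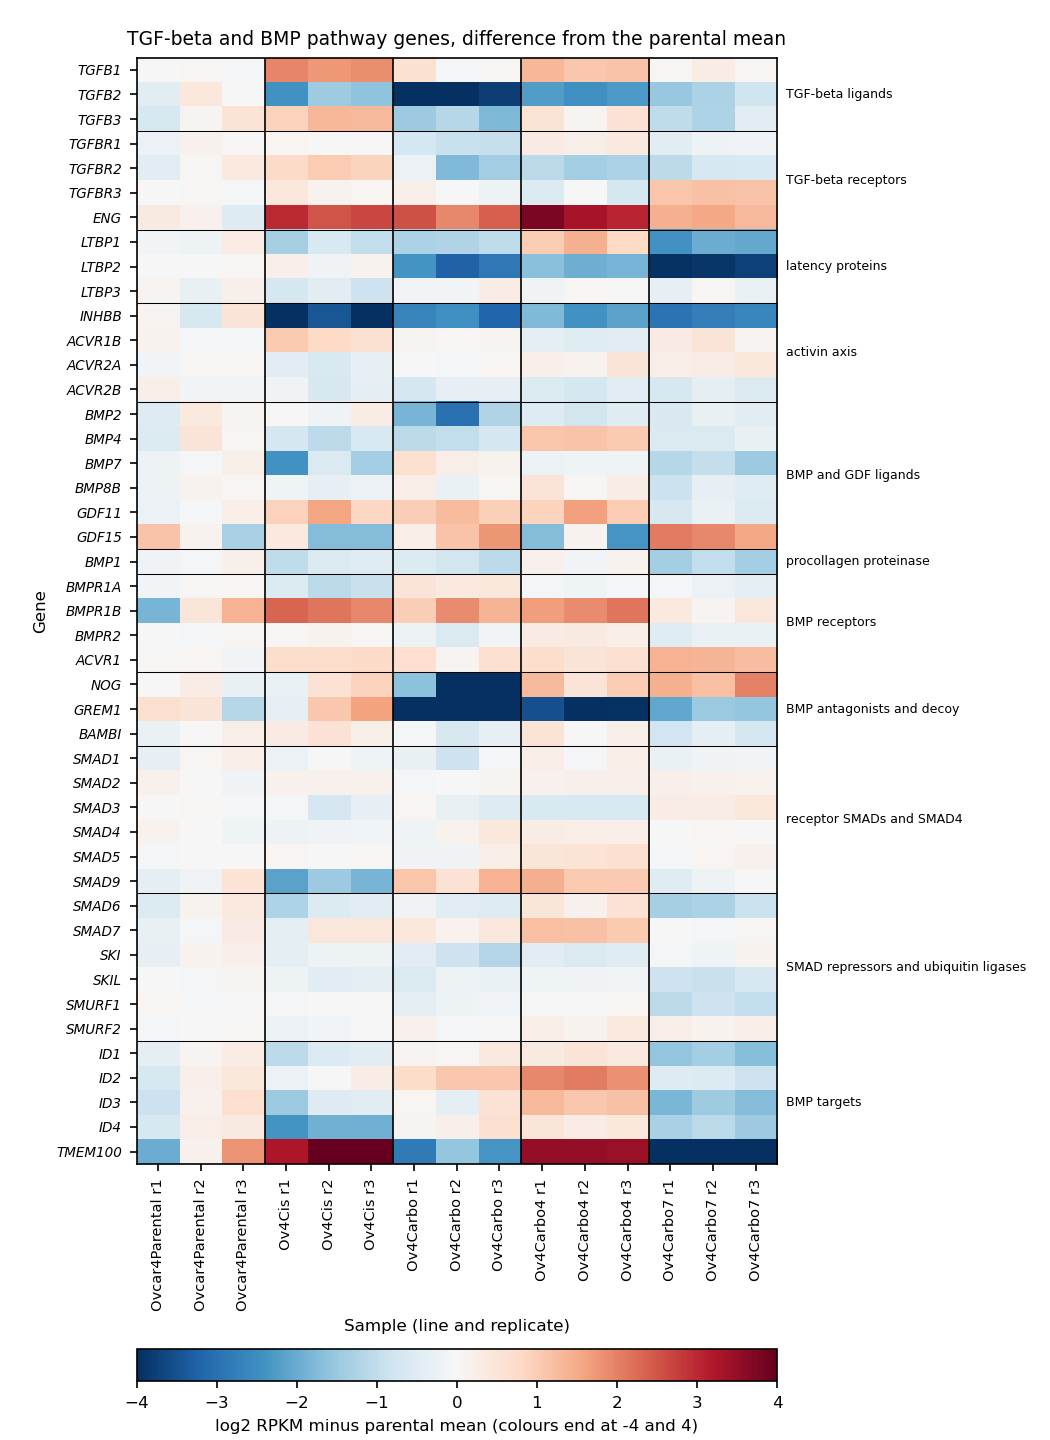
Difference of each sample's log2 RPKM from the parental mean for the 45 pathway genes (vertical axis, grouped by role) in the 15 samples (horizontal axis), with red for higher and blue for lower and colours ending at -4 and 4. ENG is red in all resistant samples, INHBB and TGFB2 are blue in all of them, and the ID genes are blue in Ov4Carbo7.

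The resistant lines also differed from each other. In Ov4Carbo4 against its source population Ov4Carbo, 13 members were called, 12 higher and 1 lower, where 14.2% of all genes were called, 7.58% higher and 6.64% lower. That count was 8 without Ov4Carbo replicate 2 and 8 without Ov4Carbo4 replicate 1, where 13% of all genes were called in each fit. It was 8 among genes of mean log2 RPKM 1 or more, of which 8.27% were called. With 1 added to the RPKM it was 7, where 5.45% of all genes were called. In Ov4Carbo7 against Ov4Carbo, 14 were called, 5 higher and 9 lower, where 13.3% of all genes were called, 7.72% higher and 5.62% lower. With 1 added to the RPKM, 9 were called there, where 4.96% of all genes were. The direct comparison of the clones gave the largest count of the 10 comparisons: in Ov4Carbo7 against Ov4Carbo4, 21 were called, 4 higher and 17 lower, where 20.9% of all genes were called, 11.1% higher and 9.86% lower. In Ov4Cis against Ov4Carbo, 14 were called, 9 higher and 5 lower, where 13.8% of all genes were called, 7.88% higher and 5.9% lower. Among genes of mean log2 RPKM 1 or more, 9 were called there, where 6.98% of those genes were. In Ov4Cis against Ov4Carbo4, 14 were called, 4 higher and 10 lower, where 16.8% of all genes were called, 9.12% higher and 7.72% lower. In Ov4Cis against Ov4Carbo7, 14 were called, 11 higher and 3 lower, where 14.7% of all genes were called, 7.46% higher and 7.2% lower, and 9 were called with 1 added to the RPKM. Across the 10 comparisons, 31 of the 45 members were called at least once, where 40.4% of all genes were. By the F-test over the 5 lines, 42 members differed at an adjusted p under 0.05, where 76.9% of all genes did, and the other 3 were SMAD1, SMAD2 and SMAD4.

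The TGF-beta ligands did not move together: TGFB1 was higher in Ov4Cis and Ov4Carbo4, TGFB2 was lower in every resistant line, and TGFB3 was higher in Ov4Cis and lower in Ov4Carbo. TGFB1, the most abundant of the 3 per length of transcript, had log2 RPKM values of 4.03, 4.13 and 3.99 in the parental line and 6.0, 5.79 and 5.90 in Ov4Cis. In Ov4Carbo, TGFB1 had values of 4.66, 3.96 and 4.09, in Ov4Carbo4 5.37, 5.13 and 5.20, and in Ov4Carbo7 4.14, 4.35 and 4.14. All Ov4Cis and Ov4Carbo4 samples lay above all samples of the other lines. TGFB1 rose in Ov4Cis (log2 fold change 1.84 ± 0.16 SE, limma adjusted p = 1.61e-06) and in Ov4Carbo4 (log2 fold change 1.18 ± 0.16 SE, limma adjusted p = 8.31e-05) against the parental line. TGFB2, the ligand with prominent roles in developing epithelia and mesenchyme, had log2 RPKM values of 0.88, 1.73 and 1.29 in the parental line and -1.11, -0.11 and -0.30 in Ov4Cis. In Ov4Carbo, TGFB2 had values of -3.19, -3.40 and -2.46, in Ov4Carbo4 -0.94, -1.14 and -0.99, and in Ov4Carbo7 -0.20, 0.03 and 0.50. The 3 parental samples were above all resistant samples, and the 3 Ov4Carbo samples were below all others. TGFB2 fell in Ov4Cis (log2 fold change -1.81 ± 0.31 SE, limma adjusted p = 5.58e-04) and Ov4Carbo (log2 fold change -4.32 ± 0.31 SE, limma adjusted p = 1.29e-06). It also fell in Ov4Carbo4 (log2 fold change -2.32 ± 0.31 SE, limma adjusted p = 8.93e-05) and Ov4Carbo7 (log2 fold change -1.19 ± 0.31 SE, limma adjusted p = 0.00792). TGFB3 had log2 RPKM values of -0.53, 0.24 and 0.66 in the parental line and 1.04, 1.44 and 1.42 in Ov4Cis. In Ov4Carbo, TGFB3 had values of -1.35, -1.03 and -1.67, in Ov4Carbo4 0.66, 0.23 and 0.71, and in Ov4Carbo7 -0.88, -1.12 and -0.29. The Ov4Cis samples were above all others, and the Ov4Carbo samples overlapped those of Ov4Carbo7 at the low end. TGFB3 rose in Ov4Cis (log2 fold change 1.18 ± 0.30 SE, limma adjusted p = 0.00755) and fell in Ov4Carbo (log2 fold change -1.47 ± 0.30 SE, limma adjusted p = 0.00254). The difference between those lines, which follows from these changes, was 2.65 ± 0.30 SE on the log2 scale, limma adjusted p = 2.79e-05. Without parental replicate 2 the TGFB2 change in Ov4Carbo7 was -0.98, limma adjusted p = 0.0389, below the fold limit, and without parental replicate 1 the TGFB3 change in Ov4Cis was 0.85, limma adjusted p = 0.0306. With 1 added to the RPKM, TGFB2 in Ov4Carbo7 (-0.74) and TGFB3 in Ov4Cis (0.71) and Ov4Carbo (-0.60) fell short of the fold limit. With a term for the title series TGFB1 in Ov4Carbo4 was 0.55, limma adjusted p = 0.0413 and TGFB2 in Ov4Carbo7 -0.94, limma adjusted p = 0.244.

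Among the TGF-beta receptors, the co-receptor ENG rose in every resistant line, TGFBR2 was called lower in Ov4Carbo and Ov4Carbo4, and TGFBR3 was called higher in Ov4Carbo7. ENG codes for endoglin, a co-receptor best known in endothelium that binds ligand together with the type II receptor. ENG had log2 RPKM values of 2.34, 2.14 and 1.46 in the parental line and 4.95, 4.49 and 4.65 in Ov4Cis. In Ov4Carbo, ENG had values of 4.52, 3.90 and 4.37, in Ov4Carbo4 5.74, 5.26 and 5.02, and in Ov4Carbo7 3.41, 3.54 and 3.28. Every resistant sample was above every parental sample, and the Ov4Carbo4 samples were the highest. ENG rose in Ov4Cis (log2 fold change 2.72 ± 0.25 SE, limma adjusted p = 3.13e-06) and Ov4Carbo (log2 fold change 2.28 ± 0.25 SE, limma adjusted p = 2.94e-05). ENG also rose in Ov4Carbo4 (log2 fold change 3.36 ± 0.25 SE, limma adjusted p = 7.51e-07) and Ov4Carbo7 (log2 fold change 1.43 ± 0.25 SE, limma adjusted p = 5.37e-04). Beside it, of the 4 listed endothelial markers with a row, CDH5 had means of 2.46 ± 0.14 (SD, n = 3) in the parental line, 5.13 ± 0.16 in Ov4Cis and 2.15 ± 0.23 in Ov4Carbo. Its means in the clones Ov4Carbo4 and Ov4Carbo7 were 4.42 ± 0.15 and 3.08 ± 0.12. ERG line means lay between 2.47 and 3.28, and VWF and KDR line means were below 0 in every line. The summed RPKM of these 4 markers ranged from 10.7 to 13.4 in the parental samples, 39.7 to 52.7 in Ov4Cis and 9.82 to 15.02 in Ov4Carbo. It ranged from 25.8 to 31.4 in Ov4Carbo4 and from 14.5 to 16.4 in Ov4Carbo7, and the part of these markers in the ENG result was not tested. With a term for the title series, ENG in Ov4Carbo7 was 1.05, limma adjusted p = 0.102.

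TGFBR2, the type II receptor that binds TGF-beta ligand first, had log2 RPKM values of 5.30, 5.80 and 6.15 in the parental line and 6.50, 6.77 and 6.63 in Ov4Cis. In Ov4Carbo, TGFBR2 had values of 5.53, 4.0 and 4.36, in Ov4Carbo4 4.68, 4.39 and 4.49, and in Ov4Carbo7 4.71, 5.09 and 5.15. The Ov4Cis samples were the highest, and Ov4Carbo replicate 1 stood over 1 log2 unit above its other replicates and inside the parental range. TGFBR2 fell in Ov4Carbo4 against the parental line (log2 fold change -1.23 ± 0.32 SE, limma adjusted p = 0.00909), and it was higher in Ov4Cis than in Ov4Carbo4 (log2 fold change 2.12 ± 0.32 SE, limma adjusted p = 2.11e-04). It was also called lower in Ov4Carbo (log2 fold change -1.12 ± 0.32 SE, limma adjusted p = 0.0183). This call was lost on leaving out parental replicate 2 (-1.09, limma adjusted p = 0.054), parental replicate 3 (-0.92, limma adjusted p = 0.0753), Ov4Carbo replicate 2 (-0.81, limma adjusted p = 0.0756) or Ov4Carbo replicate 3 (-0.99, limma adjusted p = 0.0599), and in a fit of only the 2 lines (-1.12, limma adjusted p = 0.137). TGFBR3 codes for betaglycan, which presents ligand, TGFB2 above all, to TGFBR2. TGFBR3 had log2 RPKM values of 3.10, 3.17 and 3.06 in the parental line and 3.54, 3.24 and 3.20 in Ov4Cis. In Ov4Carbo, TGFBR3 had values of 3.31, 3.14 and 2.90, in Ov4Carbo4 2.57, 3.09 and 2.40, and in Ov4Carbo7 4.23, 4.27 and 4.26. The Ov4Carbo7 samples were above all others and close together, and TGFBR3 rose in Ov4Carbo7 against the parental line (log2 fold change 1.15 ± 0.16 SE, limma adjusted p = 1.36e-04) and against the clone Ov4Carbo4 (log2 fold change 1.57 ± 0.16 SE, limma adjusted p = 8.84e-06). TGFBR1, the type I receptor that phosphorylates SMAD2 and SMAD3, had log2 RPKM values of 2.43, 2.83 and 2.68 in the parental line and 2.74, 2.64 and 2.64 in Ov4Cis. In Ov4Carbo, TGFBR1 had values of 1.93, 1.75 and 1.72, in Ov4Carbo4 2.99, 2.89 and 3.02, and in Ov4Carbo7 2.20, 2.44 and 2.5. It was called once, higher in Ov4Carbo4 than in Ov4Carbo (log2 fold change 1.17 ± 0.12 SE, limma adjusted p = 1.68e-05), with the Ov4Carbo samples below all others. With a term for the title series, TGFBR3 in Ov4Carbo7 was 0.85, limma adjusted p = 0.0491, and with 1 added to the RPKM TGFBR1 in Ov4Carbo4 against Ov4Carbo was 0.98, limma adjusted p = 5.92e-06, both below the fold limit.

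Most LTBP proteins bind latent TGF-beta and anchor it in the matrix. LTBP1 and LTBP2 were called between lines, and LTBP3 was not. LTBP1 had log2 RPKM values of 2.40, 2.32 and 2.83 in the parental line and 1.19, 1.91 and 1.52 in Ov4Cis. In Ov4Carbo, LTBP1 had values of 1.25, 1.31 and 1.51, in Ov4Carbo4 3.53, 3.95 and 3.31, and in Ov4Carbo7 0.09, 0.53 and 0.47. All Ov4Carbo4 samples were above, and all Ov4Carbo7 samples below, every other sample. LTBP1 fell in Ov4Carbo7 (log2 fold change -2.16 ± 0.21 SE, limma adjusted p = 7.39e-06) and in Ov4Carbo (log2 fold change -1.16 ± 0.21 SE, limma adjusted p = 0.00141). It rose in Ov4Carbo4 (log2 fold change 1.08 ± 0.21 SE, limma adjusted p = 0.00162), and differed between the clones (log2 fold change -3.24 ± 0.21 SE, limma adjusted p = 2.86e-07). The Ov4Carbo4 call against the parental line was lost without parental replicate 2 (0.98, limma adjusted p = 0.00906) and without Ov4Carbo4 replicate 2 (0.90, limma adjusted p = 0.00906). With 1 added to the RPKM both this change (0.96) and that in Ov4Carbo (-0.92) were below the fold limit. LTBP2, which unlike LTBP1 does not bind latent TGF-beta, is a matrix protein of the same family. LTBP2 had log2 RPKM values of 3.96, 3.98 and 4.04 in the parental line and 4.19, 3.86 and 4.12 in Ov4Cis. In Ov4Carbo, LTBP2 had values of 1.59, 0.76 and 1.13, in Ov4Carbo4 2.31, 2.04 and 2.14, and in Ov4Carbo7 0.02, 0.12 and 0.27. The parental and Ov4Cis samples overlapped, and the carboplatin-selected lines lay below both, in the order Ov4Carbo4, Ov4Carbo and Ov4Carbo7 with no overlap between neighbours. LTBP2 fell in Ov4Carbo (log2 fold change -2.83 ± 0.17 SE, limma adjusted p = 4.01e-07), Ov4Carbo4 (log2 fold change -1.83 ± 0.17 SE, limma adjusted p = 6.35e-06) and Ov4Carbo7 (log2 fold change -3.86 ± 0.17 SE, limma adjusted p = 1.98e-08). Ov4Cis gave a change of 0.06 ± 0.17 SE on the log2 scale, limma adjusted p = 0.812. LTBP3 lay between 3.04 and 4.16 in the 15 samples and was called in none of the 10 comparisons.

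**Figure D2:**
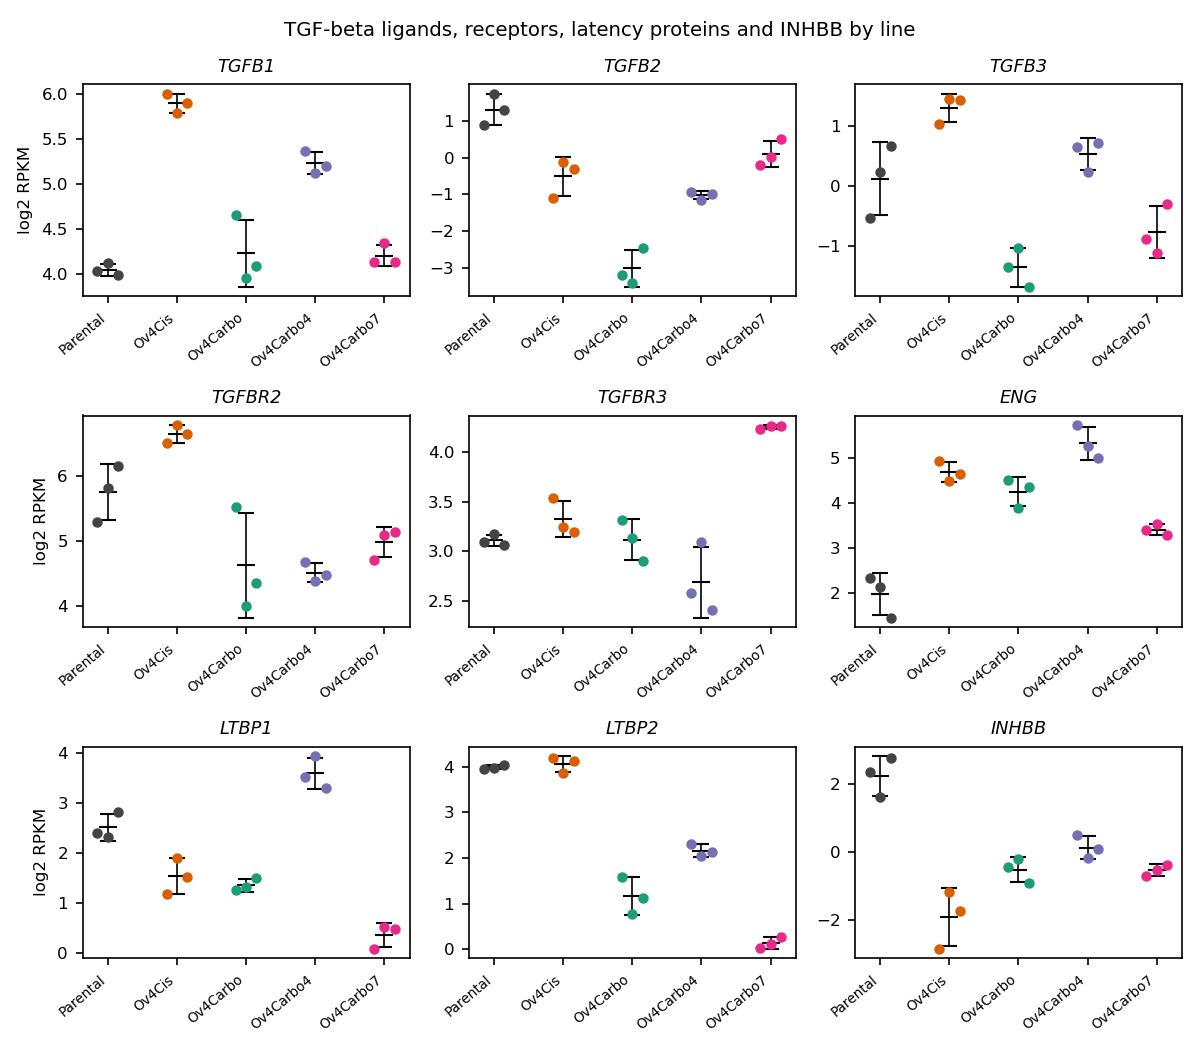
log2 RPKM (vertical axes, each with its own range) of 9 genes of the TGF-beta and activin side in the 5 lines (horizontal axes). Points are the 3 replicates, and bars are the mean and SD. ENG is above the parental samples in every resistant line, INHBB and TGFB2 are below them, and LTBP1 is highest in Ov4Carbo4 and lowest in Ov4Carbo7.

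INHBB codes for the beta B subunit shared by activin B and inhibin B, ligands that act on SMAD2 and SMAD3. INHBB had log2 RPKM values of 2.34, 1.60 and 2.75 in the parental line and -2.85, -1.18 and -1.75 in Ov4Cis. In Ov4Carbo, INHBB had values of -0.44, -0.21 and -0.93, in Ov4Carbo4 0.48, -0.20 and 0.09, and in Ov4Carbo7 -0.71, -0.52 and -0.38. Every parental sample was above every resistant sample, and the Ov4Cis samples were below all others. INHBB fell in Ov4Cis (log2 fold change -4.16 ± 0.39 SE, limma adjusted p = 3.74e-06) and Ov4Carbo (log2 fold change -2.76 ± 0.39 SE, limma adjusted p = 2.03e-04). INHBB also fell in Ov4Carbo4 (log2 fold change -2.11 ± 0.39 SE, limma adjusted p = 9.32e-04) and Ov4Carbo7 (log2 fold change -2.77 ± 0.39 SE, limma adjusted p = 1.06e-04). ENG was the member called higher in all 4 resistant lines, where 1.73% of all genes were, and INHBB and TGFB2 were the members called lower in all 4, where 1.65% of all genes were. These 4 comparisons share the 3 parental samples. Of the activin receptors, the type I receptor ACVR1B had log2 RPKM values of 3.60, 3.39 and 3.43 in the parental line and 4.52, 4.28 and 4.09 in Ov4Cis. In Ov4Carbo, ACVR1B had values of 3.59, 3.53 and 3.60, in Ov4Carbo4 3.08, 2.98 and 3.02, and in Ov4Carbo7 3.80, 3.97 and 3.59. Its Ov4Cis samples were above all others and its Ov4Carbo4 samples below, and it was called in that comparison only (log2 fold change 1.27 ± 0.12 SE, limma adjusted p = 5.84e-06). The type II receptors were not called in any of the 10 comparisons: ACVR2A lay between 0.66 and 1.78 and ACVR2B between 1.62 and 2.56.

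BMP and GDF ligands changed gene by gene. BMP4, a ligand that strongly induces ID genes, had log2 RPKM values of 2.58, 3.64 and 3.18 in the parental line and 2.47, 2.09 and 2.54 in Ov4Cis. In Ov4Carbo, BMP4 had values of 2.06, 2.15 and 2.42, in Ov4Carbo4 4.24, 4.28 and 4.18, and in Ov4Carbo7 2.57, 2.55 and 2.85. The Ov4Carbo4 samples were above all others and nearly alike, while the parental samples spread over about 1 log2 unit. BMP4 was higher in Ov4Carbo4 than in Ov4Carbo (log2 fold change 2.02 ± 0.22 SE, limma adjusted p = 2.83e-05) and lower in Ov4Carbo7 than in Ov4Carbo4 (log2 fold change -1.58 ± 0.22 SE, limma adjusted p = 7.78e-05). It was called higher in Ov4Carbo4 than in the parental line (log2 fold change 1.10 ± 0.22 SE, limma adjusted p = 0.00171), and without parental replicate 1 that change was 0.82, limma adjusted p = 0.00414, below the fold limit. BMP7, a ligand best known from kidney and bone development, had log2 RPKM values of 5.70, 5.84 and 6.13 in the parental line and 3.46, 5.32 and 4.50 in Ov4Cis. In Ov4Carbo, BMP7 had values of 6.52, 6.15 and 6.03, in Ov4Carbo4 5.65, 5.71 and 5.71, and in Ov4Carbo7 4.74, 4.93 and 4.43. Ov4Cis varied most between replicates and overlapped Ov4Carbo7, and both lay below the parental samples. BMP7 was called lower in Ov4Cis (log2 fold change -1.46 ± 0.34 SE, limma adjusted p = 0.00503) and Ov4Carbo7 (log2 fold change -1.19 ± 0.34 SE, limma adjusted p = 0.0144) than in the parental line. The Ov4Cis change was -0.97, limma adjusted p = 0.00864 without Ov4Cis replicate 1, and the Ov4Carbo7 change was -1.07, limma adjusted p = 0.0525 without parental replicate 3, -1.05, limma adjusted p = 0.0551 without Ov4Carbo7 replicate 3, and -1.62, limma adjusted p = 0.0786 with a term for the title series. In a fit of only the 2 lines, the Ov4Cis call also missed (-1.46, limma adjusted p = 0.0514). BMP2, named after its values were seen because it falls outside the naming rule, was low in all lines and had log2 RPKM values of 0.43, 1.34 and 1.04 in the parental line and 0.94, 0.80 and 1.23 in Ov4Cis. In Ov4Carbo, BMP2 had values of -0.93, -2.05 and -0.27, in Ov4Carbo4 0.41, 0.21 and 0.46, and in Ov4Carbo7 0.34, 0.64 and 0.53. The Ov4Carbo samples were below all others, and BMP2 fell in Ov4Carbo (log2 fold change -2.02 ± 0.35 SE, limma adjusted p = 0.00102), a change of -0.96, limma adjusted p = 3.11e-04 with 1 added to the RPKM.

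GDF11, a ligand that signals mainly through SMAD2 and SMAD3, had log2 RPKM values of 3.68, 3.86 and 4.19 in the parental line and 4.83, 5.47 and 4.73 in Ov4Cis. In Ov4Carbo, GDF11 had values of 4.88, 5.16 and 4.86, in Ov4Carbo4 4.81, 5.53 and 4.92, and in Ov4Carbo7 3.26, 3.64 and 3.35. The samples fell into a high set of Ov4Cis, Ov4Carbo and Ov4Carbo4 and lower ones of the parental line and Ov4Carbo7, with no overlap. GDF11 was lower in Ov4Carbo7 than in Ov4Carbo4 (log2 fold change -1.67 ± 0.23 SE, limma adjusted p = 7.36e-05) and than in Ov4Carbo (log2 fold change -1.55 ± 0.23 SE, limma adjusted p = 2.99e-04). Against the parental line it was called higher in Ov4Cis (log2 fold change 1.10 ± 0.23 SE, limma adjusted p = 0.00235), Ov4Carbo (log2 fold change 1.06 ± 0.23 SE, limma adjusted p = 0.004) and Ov4Carbo4 (log2 fold change 1.18 ± 0.23 SE, limma adjusted p = 0.00146), all close to the fold limit. The log2 fold change dropped below 1 without parental replicate 1 in Ov4Cis (0.99) and Ov4Carbo (0.95), without Ov4Cis replicate 2 (0.87), without Ov4Carbo replicate 2 (0.96) and without Ov4Carbo4 replicate 2 (0.96). GDF15, a distant member of the family induced by cell stress that signals through another receptor, GFRAL, had log2 RPKM values of 7.35, 6.34 and 4.91 in the parental line and 6.59, 4.45 and 4.47 in Ov4Cis. In Ov4Carbo, GDF15 had values of 6.47, 7.34 and 7.97, in Ov4Carbo4 4.46, 6.34 and 3.83, and in Ov4Carbo7 8.27, 8.12 and 7.76. Its replicates spread widely in every line but Ov4Carbo7, where all were near 8. GDF15 was higher in Ov4Carbo7 than in Ov4Carbo4 (log2 fold change 3.17 ± 0.76 SE, limma adjusted p = 0.00397, and 3.90 without Ov4Carbo4 replicate 2), and it was called in none of the 4 resistant lines against the parental line. BMP8B lay between -1.22 and 0.16 and was called in none of the 10 comparisons, and as its near-identical copy BMP8A may share reads with it, its level is uncertain.

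BMP1 codes not for a growth factor but for a secreted proteinase that trims procollagens and also cleaves the BMP antagonist chordin. BMP1 had log2 RPKM values of 2.5, 2.56 and 2.82 in the parental line and 1.62, 2.03 and 2.15 in Ov4Cis. In Ov4Carbo, BMP1 had values of 2.09, 1.88 and 1.59, in Ov4Carbo4 2.81, 2.52 and 2.76, and in Ov4Carbo7 1.27, 1.64 and 1.28. The parental and Ov4Carbo4 samples were above all others, and those of the other 3 lines overlapped. BMP1 fell in Ov4Carbo7 against the parental line (log2 fold change -1.23 ± 0.17 SE, limma adjusted p = 1.23e-04) and against Ov4Carbo4 (log2 fold change -1.30 ± 0.17 SE, limma adjusted p = 5.88e-05), and with 1 added to the RPKM the first was -0.98, limma adjusted p = 5.08e-05.

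Of the BMP receptors, ACVR1 and BMPR1A differed between lines and BMPR2, the type II receptor, did not pass the call. ACVR1, the type I receptor ALK2, had log2 RPKM values of 2.07, 2.11 and 1.90 in the parental line and 2.72, 2.74 and 2.78 in Ov4Cis. In Ov4Carbo, ACVR1 had values of 2.70, 2.13 and 2.66, in Ov4Carbo4 2.73, 2.55 and 2.66, and in Ov4Carbo7 3.42, 3.39 and 3.26. The Ov4Carbo7 samples were above all others, and the parental samples were below all others by a small margin. ACVR1 rose in Ov4Carbo7 (log2 fold change 1.33 ± 0.14 SE, limma adjusted p = 9.17e-06), its only call. BMPR1A, the type I receptor ALK3, had log2 RPKM values of 3.76, 3.92 and 3.95 in the parental line and 3.32, 2.80 and 2.98 in Ov4Cis. In Ov4Carbo, BMPR1A had values of 4.40, 4.27 and 4.32, in Ov4Carbo4 3.82, 3.71 and 3.79, and in Ov4Carbo7 3.83, 3.63 and 3.52. Its Ov4Carbo samples were the highest and its Ov4Cis samples the lowest, and it was called in that comparison only (log2 fold change -1.30 ± 0.13 SE, limma adjusted p = 9.99e-06). BMPR2 lay between 4.27 and 5.21 in all 15 samples. BMPR1B, the type I receptor ALK6, was named after its values were seen, and was low with log2 RPKM values of -3.51, -1.17 and -0.27 in the parental line and 0.68, 0.51 and 0.28 in Ov4Cis. In Ov4Carbo, BMPR1B had values of -0.65, 0.25 and -0.29, in Ov4Carbo4 0.04, 0.25 and 0.50, and in Ov4Carbo7 -1.25, -1.54 and -1.19. Parental replicate 1 was the lowest sample by over 1 log2 unit. BMPR1B was called higher in Ov4Cis (log2 fold change 2.14 ± 0.59 SE, limma adjusted p = 0.0123) and Ov4Carbo4 (log2 fold change 1.91 ± 0.59 SE, limma adjusted p = 0.0209), and without parental replicate 1 these were 1.21, limma adjusted p = 0.00787 and 0.98, limma adjusted p = 0.0222, the latter below the fold limit. Without parental replicate 3 they were 2.83 and 2.60. The Ov4Carbo4 call was also lost without Ov4Carbo4 replicate 2 (1.91, limma adjusted p = 0.0517) or replicate 3 (1.79, limma adjusted p = 0.0655). Fits of only the 2 lines lost both calls, at limma adjusted p = 0.084 in Ov4Cis and limma adjusted p = 0.0998 in Ov4Carbo4. With a term for the title series the Ov4Carbo4 change was 2.54, limma adjusted p = 0.101. On the scale with 1 added to the RPKM, the Ov4Cis and Ov4Carbo4 changes were 0.76 and 0.63.

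The secreted BMP antagonists NOG and GREM1 had their lowest values in the Ov4Carbo population. NOG codes for noggin, which binds BMP ligands and blocks their receptor sites. NOG had log2 RPKM values of 0.98, 1.26 and 0.68 in the parental line and 0.71, 1.54 and 1.89 in Ov4Cis. In Ov4Carbo, NOG had values of -0.66, -4.27 and -3.87, in Ov4Carbo4 2.25, 1.49 and 2.0, and in Ov4Carbo7 2.40, 2.18 and 2.98. The Ov4Carbo samples were below all others, and replicate 1 stood over 3 log2 units above replicates 2 and 3. NOG fell in Ov4Carbo (log2 fold change -3.90 ± 0.72 SE, limma adjusted p = 0.00139), and the change was -5.04, limma adjusted p = 2.55e-06 without Ov4Carbo replicate 1 and -3.24, limma adjusted p = 0.00611 without replicate 2. All samples of both clones of that population lay above all parental samples. NOG was higher in Ov4Carbo4 (log2 fold change 4.85 ± 0.72 SE, limma adjusted p = 2.38e-04) and in Ov4Carbo7 (log2 fold change 5.45 ± 0.72 SE, limma adjusted p = 1.34e-04) than in Ov4Carbo. Those differences were 5.98 and 6.59 without Ov4Carbo replicate 1, and 4.18 and 4.78 without replicate 2.

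GREM1 codes for gremlin, an antagonist of BMP2, BMP4 and BMP7. GREM1 had log2 RPKM values of 4.09, 3.95 and 2.30 in the parental line and 3.12, 4.53 and 5.05 in Ov4Cis. In Ov4Carbo, GREM1 had values of -0.97, -4.47 and -3.52, in Ov4Carbo4 -0.07, -1.0 and -0.50, and in Ov4Carbo7 1.35, 1.97 and 1.90. The parental and Ov4Cis samples overlapped at the top, Ov4Carbo7 lay below them, and Ov4Carbo4 and Ov4Carbo lay lower still, with Ov4Carbo replicate 1 inside the Ov4Carbo4 range. GREM1 fell in Ov4Carbo (log2 fold change -6.43 ± 0.78 SE, limma adjusted p = 7.10e-05) and Ov4Carbo4 (log2 fold change -3.97 ± 0.78 SE, limma adjusted p = 0.00155), and was higher in Ov4Cis than in Ov4Carbo4 (log2 fold change 4.76 ± 0.78 SE, limma adjusted p = 3.73e-04). The Ov4Carbo change was -7.44 without Ov4Carbo replicate 1 and -5.69 without replicate 2. Ov4Carbo7 against the parental line gave a change of -1.70 ± 0.78 SE on the log2 scale, limma adjusted p = 0.0979, and no call. Between the clones GREM1 was higher in Ov4Carbo7 (log2 fold change 2.27 ± 0.78 SE, limma adjusted p = 0.0281). This call was lost without Ov4Carbo4 replicate 2 (2.03, limma adjusted p = 0.0866) or replicate 3 (2.28, limma adjusted p = 0.0624) and without Ov4Carbo7 replicate 2 (2.15, limma adjusted p = 0.0739) or replicate 3 (2.19, limma adjusted p = 0.0698). BAMBI codes for a receptor-like protein with no kinase part, which blocks type I receptors. BAMBI had log2 RPKM values of 2.40, 2.69 and 2.94 in the parental line and 3.0, 3.25 and 2.93 in Ov4Cis. In Ov4Carbo, BAMBI had values of 2.61, 2.04 and 2.37, in Ov4Carbo4 3.22, 2.65 and 2.91, and in Ov4Carbo7 1.90, 2.30 and 1.97. It had 1 call, at the fold limit, higher in Ov4Cis than in Ov4Carbo7 (log2 fold change 1.0 ± 0.19 SE, limma adjusted p = 0.00142). The change was 0.90 without Ov4Cis replicate 2, 0.92 without Ov4Carbo7 replicate 1, 0.96 without Ov4Carbo7 replicate 3 and 0.85 with 1 added to the RPKM.

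Of the SMADs that carry the signal, SMAD9 was the one that was called in any comparison. SMAD9, the least abundant of the 3 BMP SMADs in Ov4Cis, had log2 RPKM values of 0.69, 0.95 and 1.63 in the parental line and -1.04, -0.38 and -0.77 in Ov4Cis. In Ov4Carbo, SMAD9 had values of 2.20, 1.66 and 2.49, in Ov4Carbo4 2.54, 2.15 and 2.15, and in Ov4Carbo7 0.61, 0.90 and 1.08. All Ov4Cis samples were below, and all Ov4Carbo and Ov4Carbo4 samples above, those of the other lines. SMAD9 fell in Ov4Cis (log2 fold change -1.82 ± 0.27 SE, limma adjusted p = 1.94e-04) and was lower there than in Ov4Carbo4 (log2 fold change -3.01 ± 0.27 SE, limma adjusted p = 3.12e-06) and in Ov4Carbo (log2 fold change -2.85 ± 0.27 SE, limma adjusted p = 7.32e-06). It was called higher than in the parental line in Ov4Carbo4 (log2 fold change 1.19 ± 0.27 SE, limma adjusted p = 0.00398), where the change was 0.99, limma adjusted p = 0.0196 without parental replicate 1 and 1.07, limma adjusted p = 0.139 with a term for the title series. It was also called higher in Ov4Carbo (log2 fold change 1.03 ± 0.27 SE, limma adjusted p = 0.0118). There the change dropped to 0.83 and 0.96 without parental replicates 1 and 2 and to 0.99 and 0.84 without Ov4Carbo replicates 1 and 3. A fit of only the 2 lines gave limma adjusted p = 0.0821. On the scale with 1 added to the RPKM, all 3 changes against the parental line were below the fold limit (-0.97 in Ov4Cis, 0.77 in Ov4Carbo and 0.89 in Ov4Carbo4). The BMP SMADs SMAD1 (0.53 to 1.60 over the 15 samples) and SMAD5 (4.47 to 5.24), the TGF-beta SMADs SMAD2 (4.57 to 4.94) and SMAD3 (3.70 to 4.81), and the shared SMAD4 (2.03 to 2.66) were called in none of the 10 comparisons. SMAD RNA says nothing of phosphorylation, which was not measured.

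SMAD6 and SMAD7 code for inhibitory SMADs, which are both targets and brakes of the pathway. SMAD6, which acts mainly on the BMP branch, had log2 RPKM values of 3.95, 4.65 and 4.90 in the parental line and 3.27, 3.95 and 4.04 in Ov4Cis. In Ov4Carbo, SMAD6 had values of 4.35, 4.08 and 4.0, in Ov4Carbo4 4.97, 4.66 and 5.09, and in Ov4Carbo7 3.18, 3.25 and 3.63. The Ov4Carbo7 samples were the lowest apart from an overlap with Ov4Cis replicate 1, and parental replicate 3 lay inside the Ov4Carbo4 range at the top. SMAD6 was lower in Ov4Carbo7 than in Ov4Carbo4 (log2 fold change -1.56 ± 0.26 SE, limma adjusted p = 2.80e-04) and than in the parental line (log2 fold change -1.15 ± 0.26 SE, limma adjusted p = 0.00313), the latter at -0.95, limma adjusted p = 0.0163 without parental replicate 3. SMAD7, which acts on both branches, had log2 RPKM values of 2.23, 2.48 and 2.83 in the parental line and 2.16, 2.96 and 2.98 in Ov4Cis. In Ov4Carbo, SMAD7 had values of 2.93, 2.65 and 2.94, in Ov4Carbo4 3.71, 3.70 and 3.56, and in Ov4Carbo7 2.49, 2.42 and 2.57. The Ov4Carbo4 samples were above all others, and the other lines overlapped. SMAD7 rose in Ov4Carbo4 against the parental line (log2 fold change 1.14 ± 0.21 SE, limma adjusted p = 8.41e-04) and was lower in Ov4Carbo7 than in Ov4Carbo4 (log2 fold change -1.16 ± 0.21 SE, limma adjusted p = 4.96e-04). With a term for the title series the first was 1.0, limma adjusted p = 0.0714. The nuclear co-repressors SKI (3.13 to 4.50 over the 15 samples) and SKIL (3.24 to 4.22) and the ubiquitin ligases SMURF1 (3.75 to 4.86) and SMURF2 (2.88 to 3.50) were called in none of the 10 comparisons.

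The ID genes were lower in Ov4Carbo7 than in Ov4Carbo4, and ID4 was lowest in Ov4Cis. ID1 (ENSG00000125968), the most abundant of them per length of transcript, had log2 RPKM values of 7.95, 8.43 and 8.63 in the parental line and 7.30, 7.79 and 7.91 in Ov4Cis. In Ov4Carbo, ID1 had values of 8.45, 8.39 and 8.74, in Ov4Carbo4 8.70, 8.85 and 8.74, and in Ov4Carbo7 6.76, 6.99 and 6.63. All Ov4Carbo7 samples were below all others, and Ov4Carbo4 overlapped Ov4Carbo at the top. ID1 fell in Ov4Carbo7 against the parental line (log2 fold change -1.55 ± 0.19 SE, limma adjusted p = 4.35e-05) and against Ov4Carbo4 (log2 fold change -1.97 ± 0.19 SE, limma adjusted p = 4.96e-06). ID2 (ENSG00000115738) had log2 RPKM values of 3.64, 4.46 and 4.70 in the parental line and 4.04, 4.28 and 4.57 in Ov4Cis. In Ov4Carbo, ID2 had values of 5.01, 5.35 and 5.34, in Ov4Carbo4 6.18, 6.34 and 6.08, and in Ov4Carbo7 3.74, 3.73 and 3.45. The Ov4Carbo4 samples were above all others and the Ov4Carbo samples came next, with no overlap. ID2 rose in Ov4Carbo4 (log2 fold change 1.93 ± 0.23 SE, limma adjusted p = 4.20e-05) and was lower in Ov4Carbo7 than in Ov4Carbo4 (log2 fold change -2.56 ± 0.23 SE, limma adjusted p = 2.96e-06). Ov4Carbo7 against the parental line gave for ID2 a change of -0.62 ± 0.23 SE on the log2 scale, limma adjusted p = 0.0469, and no call.

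ID3 (ENSG00000117318) had log2 RPKM values of 5.57, 6.58 and 7.10 in the parental line and 4.93, 5.90 and 5.96 in Ov4Cis. In Ov4Carbo, ID3 had values of 6.49, 6.06 and 6.98, in Ov4Carbo4 7.72, 7.49 and 7.59, and in Ov4Carbo7 4.59, 5.01 and 4.68. The Ov4Carbo4 samples were above all others, the Ov4Carbo7 samples overlapped Ov4Cis replicate 1, and the parental replicates spread over more than 1 log2 unit. ID3 fell in Ov4Carbo7 (log2 fold change -1.66 ± 0.37 SE, limma adjusted p = 0.00309) and differed between the clones (log2 fold change -2.84 ± 0.37 SE, limma adjusted p = 4.54e-05). It was called higher in Ov4Carbo4 than in the parental line (log2 fold change 1.18 ± 0.37 SE, limma adjusted p = 0.0226), and this call was lost without parental replicate 1 (0.76, limma adjusted p = 0.0941), Ov4Carbo4 replicate 1 (1.12, limma adjusted p = 0.0649) or Ov4Carbo4 replicate 3 (1.18, limma adjusted p = 0.0563). ID4 (ENSG00000172201) had log2 RPKM values of 5.91, 6.83 and 6.91 in the parental line and 4.17, 4.64 and 4.62 in Ov4Cis. In Ov4Carbo, ID4 had values of 6.66, 6.75 and 7.19, in Ov4Carbo4 7.03, 6.84 and 6.96, and in Ov4Carbo7 5.25, 5.49 and 5.09. The Ov4Cis samples were below all others, the Ov4Carbo7 samples came next, and the remaining lines overlapped above them. ID4 fell in Ov4Cis (log2 fold change -2.07 ± 0.24 SE, limma adjusted p = 3.00e-05) and Ov4Carbo7 (log2 fold change -1.27 ± 0.24 SE, limma adjusted p = 0.00116) against the parental line and was lower in Ov4Carbo7 than in Ov4Carbo4 (log2 fold change -1.67 ± 0.24 SE, limma adjusted p = 1.16e-04). Parental replicate 1 was the lowest of the 3 parental samples for all 4 ID genes. With a term for the title series the Ov4Carbo7 change against the parental line was -1.63, limma adjusted p = 0.104 for ID3 and -0.97, limma adjusted p = 0.129 for ID4, and the Ov4Carbo4 change for ID3 was 1.21, limma adjusted p = 0.216.

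TMEM100 (ENSG00000166292) codes for a small membrane protein known as a BMP target in endothelium. TMEM100 had log2 RPKM values of -3.94, -1.80 and -0.17 in the parental line and 1.25, 3.42 and 3.39 in Ov4Cis. In Ov4Carbo, TMEM100 had values of -4.80, -3.52 and -4.32, in Ov4Carbo4 1.55, 1.54 and 1.5, and in Ov4Carbo7 -6.31, -6.45 and -6.60. The Ov4Cis and Ov4Carbo4 samples overlapped at the top, the Ov4Carbo7 samples were below all others and near the lowest values of the table, and the parental replicates ranged over more than 3 log2 units. TMEM100 rose in Ov4Cis (log2 fold change 4.66 ± 0.78 SE, limma adjusted p = 4.63e-04) and Ov4Carbo4 (log2 fold change 3.50 ± 0.78 SE, limma adjusted p = 0.00343), and fell in Ov4Carbo7 (log2 fold change -4.48 ± 0.78 SE, limma adjusted p = 5.66e-04). It had the largest difference between the clones of all members (log2 fold change -7.98 ± 0.78 SE, limma adjusted p = 4.96e-06). Without parental replicate 1 the changes in Ov4Cis, Ov4Carbo4 and Ov4Carbo7 were 3.67, 2.51 and -5.47. Without parental replicate 3 they were 5.56, 4.40 and -3.58, and without Ov4Cis replicate 1 that in Ov4Cis was 5.37. The Ov4Carbo7 change against the parental line was -0.44, limma adjusted p = 0.335 with 1 added to the RPKM, and -3.61, limma adjusted p = 0.0846 with a term for the title series. The call in Ov4Carbo (log2 fold change -2.24 ± 0.78 SE, limma adjusted p = 0.0419) was lost in 10 of the 15 fits that left out 1 sample, where it ranged from -3.23, limma adjusted p = 0.00288 without parental replicate 1, which kept it, to -1.35, limma adjusted p = 0.172 without parental replicate 3. Of the 4 listed endothelial markers with a row, 1 was called higher and 0 lower in Ov4Cis, and 1 higher and 1 lower in Ov4Carbo4. Of all genes, 8.46% were called higher and 7.41% lower in Ov4Cis, and 7.43% and 7.7% in Ov4Carbo4. The marker called lower in Ov4Carbo4 had a mean below 0 log2 RPKM in every line. The marker called higher was CDH5 in both lines, with the means given beside ENG, and its part in the TMEM100 result was not tested.

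**Figure D3:**
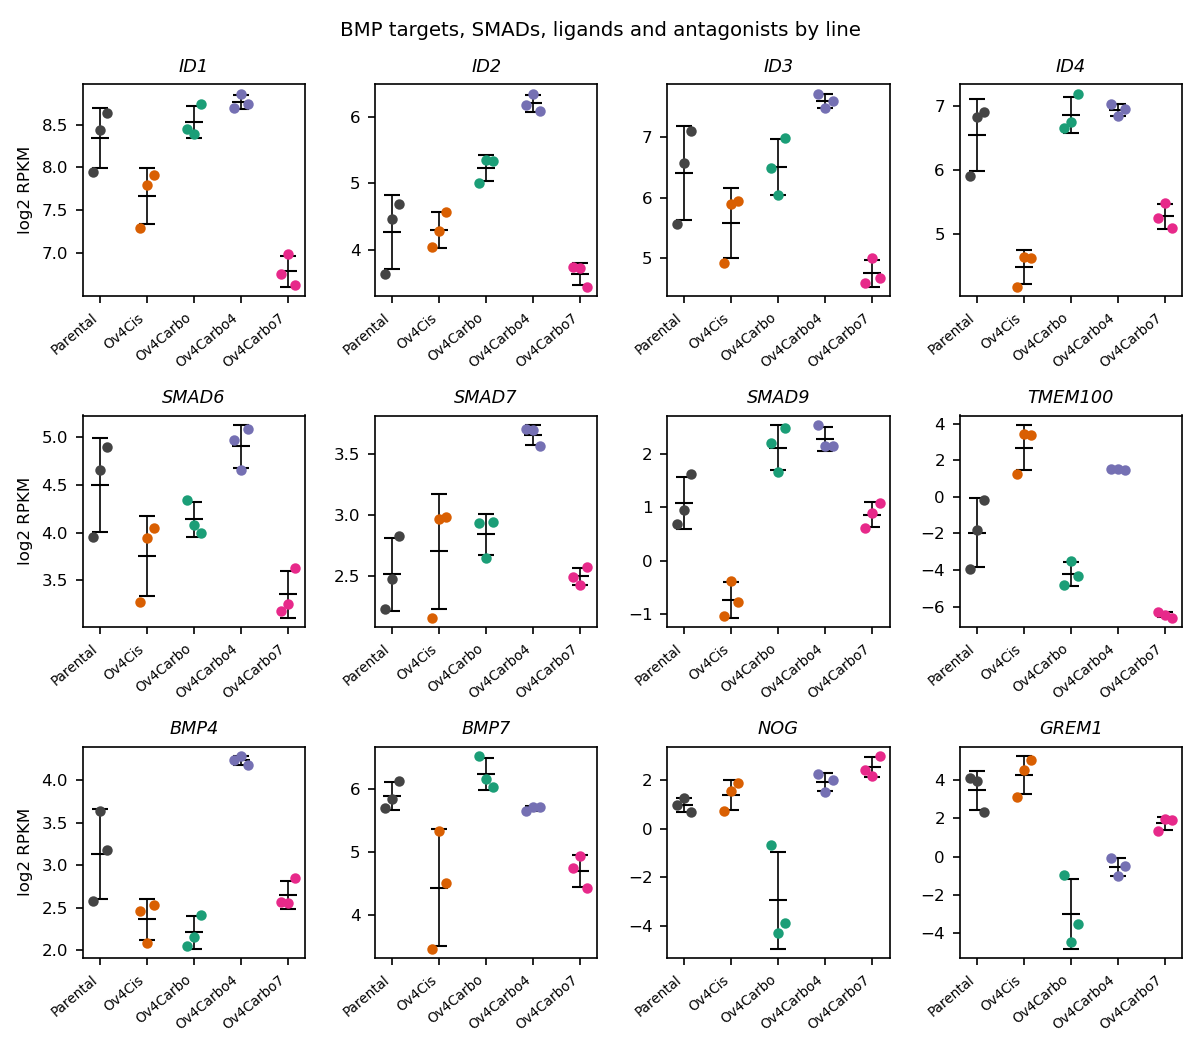
log2 RPKM (vertical axes, each with its own range) of 12 genes of the BMP side in the 5 lines (horizontal axes). Points are the 3 replicates, and bars are the mean and SD. ID1, ID2, ID3, SMAD6 and SMAD7 have their highest mean in Ov4Carbo4 and their lowest in Ov4Carbo7, and NOG and GREM1 are lowest in Ov4Carbo.

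The clones come from the same carboplatin-selected population. All 5 BMP target members (ID1, ID2, ID3, ID4 and TMEM100) were called lower in Ov4Carbo7 than in Ov4Carbo4, as were LTBP1, LTBP2 (log2 fold change -2.03 ± 0.17 SE, limma adjusted p = 1.86e-06), ENG (log2 fold change -1.93 ± 0.25 SE, limma adjusted p = 4.12e-05), SMAD6, SMAD7, SMAD9 (log2 fold change -1.42 ± 0.27 SE, limma adjusted p = 8.46e-04), BMP1, BMP4, GDF11, TGFB1 (log2 fold change -1.02 ± 0.16 SE, limma adjusted p = 1.53e-04), TGFB3 (log2 fold change -1.29 ± 0.30 SE, limma adjusted p = 0.00288) and BMPR1B (log2 fold change -1.59 ± 0.59 SE, limma adjusted p = 0.0375). With 1 added to the RPKM, the differences of TGFB3 (-0.62), BMPR1B (-0.66), TGFB1 (-0.99) and TGFB2 (0.48) were below the fold limit. The TGFB1 change was -0.96 without Ov4Carbo4 replicate 1, -0.99 without Ov4Carbo7 replicate 1 and -0.99 without Ov4Carbo7 replicate 3. The BMPR1B call was lost without any single Ov4Carbo4 or Ov4Carbo7 sample, with limma adjusted p from 0.0608 to 0.1. The members called higher in Ov4Carbo7 were GDF15, GREM1, TGFBR3 and TGFB2 (log2 fold change 1.13 ± 0.31 SE, limma adjusted p = 0.00855, and 0.94 without Ov4Carbo7 replicate 3). The median log2 fold change of the 45 members was -0.65, beside -0.05 for all genes. Ov4Carbo4 had the highest mean of the 5 lines for 21 members, where 26.8% of all genes had it, and Ov4Carbo7 the lowest for 15, where 22.8% did. For 11 members (LTBP1, BMP1, BMP8B, GDF11, BMPR2, SMAD6, SMAD7, SMURF1, ID1, ID2 and ID3) Ov4Carbo4 was highest and Ov4Carbo7 lowest, an order that 9.68% of all genes shared.

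**Figure D4:**
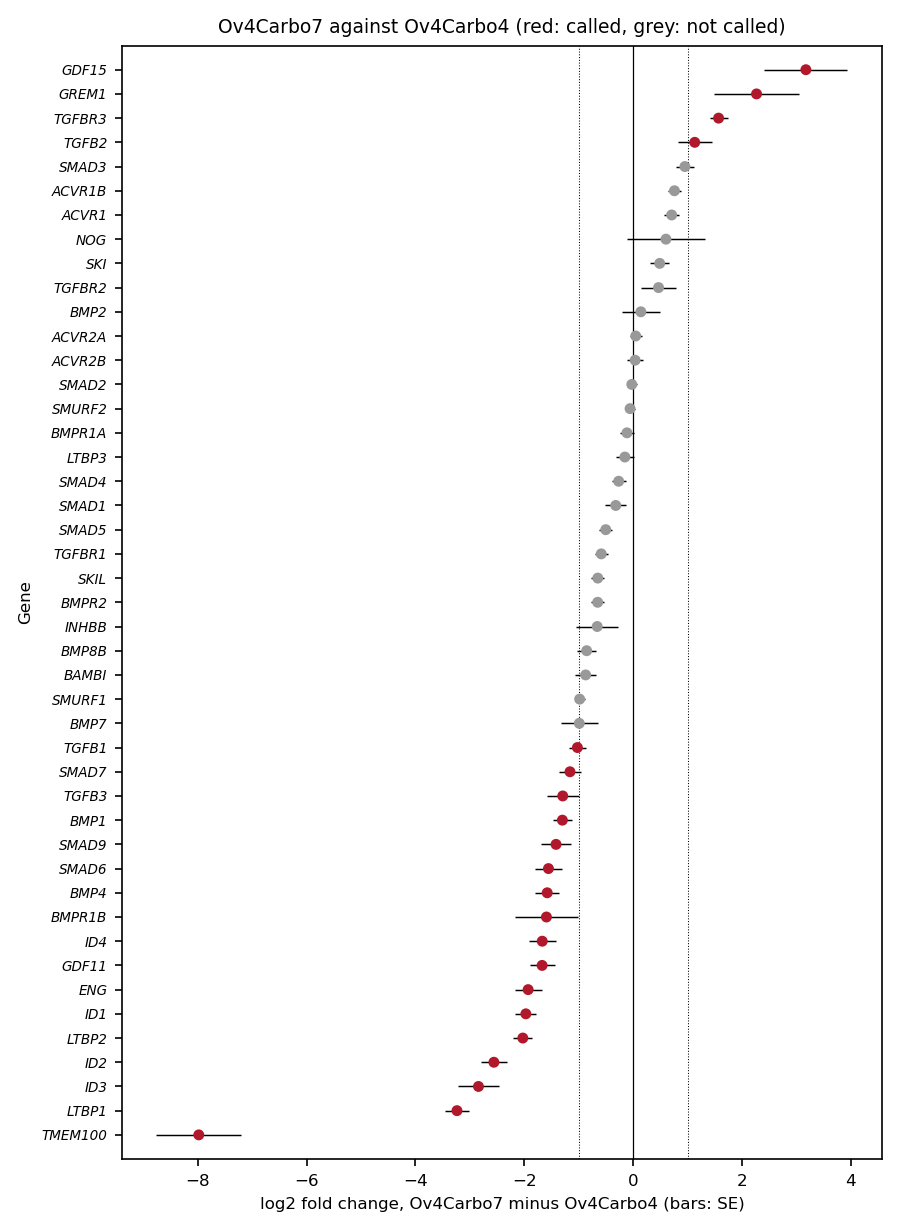
log2 fold change of Ov4Carbo7 minus Ov4Carbo4 (horizontal axis, bars are SE) for the 45 pathway genes (vertical axis, ordered by the change), with red for called and grey for not called and dotted lines at -1 and 1. Of the 21 called genes 17 are lower in Ov4Carbo7, with TMEM100 the lowest at -7.98 and GDF15 the highest at 3.17.

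Genes widely used as TGF-beta targets, a list of 30 of which 26 have a row, were called lower more often than higher in each resistant line. Of the 26, 12 were called in Ov4Cis (4 higher and 8 lower) and 14 in Ov4Carbo (1 and 13). In Ov4Carbo4 15 were called (4 and 11) and in Ov4Carbo7 14 (3 and 11), against the shares of all genes given above. The list's median log2 fold changes were -0.23, -1.04, -0.98 and -0.80, beside 0.04, 0.03, 0.07 and 0.02 for all genes. When genes with a mean log2 RPKM below 1 were left out, 9 were called in each of Ov4Carbo and Ov4Carbo7. Of the genes kept, 6.06% and 9.42% were called in these lines. In all 4 lines, which share the parental samples, the contractile genes TAGLN and ACTA2, the matricellular gene CCN2, the collagen gene COL1A2, the integrin subunit ITGB6, which activates latent TGF-beta, and the pathway inhibitor PMEPA1 were called lower. SPARC, a matricellular protein, was called higher. Of all genes, 1.65% were called lower and 1.73% higher in all 4 lines.

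TAGLN had log2 RPKM values of 7.79, 8.24 and 8.42 in the parental line and 0.70, 1.84 and 1.71 in Ov4Cis. In Ov4Carbo, TAGLN had values of 4.43, 2.81 and 2.54, in Ov4Carbo4 4.26, 3.07 and 4.37, and in Ov4Carbo7 2.44, 2.76 and 2.99. Every parental sample was above every resistant sample, and TAGLN fell in Ov4Cis (log2 fold change -6.73 ± 0.49 SE, limma adjusted p = 4.09e-07), Ov4Carbo (log2 fold change -4.89 ± 0.49 SE, limma adjusted p = 1.58e-05, and -5.47 without Ov4Carbo replicate 1), Ov4Carbo4 (log2 fold change -4.25 ± 0.49 SE, limma adjusted p = 2.75e-05) and Ov4Carbo7 (log2 fold change -5.42 ± 0.49 SE, limma adjusted p = 3.44e-06). SPARC had log2 RPKM values of 1.95, 1.46 and 0.51 in the parental line and 6.85, 7.12 and 7.15 in Ov4Cis. In Ov4Carbo, SPARC had values of 5.99, 5.46 and 5.95, in Ov4Carbo4 7.11, 6.91 and 6.74, and in Ov4Carbo7 4.98, 5.14 and 5.01. Every resistant sample was above every parental sample, and SPARC rose by 5.73, 4.49, 5.61 and 3.74 on the log2 scale in Ov4Cis, Ov4Carbo, Ov4Carbo4 and Ov4Carbo7, with limma adjusted p of 9.74e-07 or less. The log2 fold changes of PMEPA1 were -2.09, -4.76, -2.49 and -3.39 in the same order, and those of ITGB6 were -3.38, -3.05, -1.95 and -4.72. CCN2 changed by -1.32, -2.42, -3.30 and -2.58, and in Ov4Cis its call was lost in 9 of the 15 fits that left out 1 sample, at most to -0.75, limma adjusted p = 0.174 without Ov4Cis replicate 1. COL1A2 changed by -4.24, -5.18, -5.80 and -4.95, ACTA2 by -2.67, -3.65, -5.62 and -1.71. Named after its values were seen, the fibronectin gene FN1 had its lowest mean in Ov4Carbo4, -4.90 ± 0.11 log2 RPKM (SD, n = 3), against 2.02 ± 0.55 in the parental line and 1.96 ± 0.33 in Ov4Carbo7.

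Beside these targets, the 16 listed epithelial junction genes were lower in the resistant lines as well: all 16 were called lower in Ov4Cis, 15 in Ov4Carbo7, 11 in Ov4Carbo and 9 in Ov4Carbo4, and 0 were called higher in any of these lines. Of all genes, 7.41%, 7.75%, 6.93% and 7.7% were called lower in the same order. The summed RPKM of the 16 ranged from 670 to 748 in the parental samples, 10.0 to 12.6 in Ov4Cis and 95.7 to 116 in Ov4Carbo7. In Ov4Carbo and Ov4Carbo4 it ranged from 195 to 287 and from 195 to 215. In Ov4Carbo7 against Ov4Carbo4, 12 of the 16 junction genes were called lower, where 9.86% of all genes were. Of the 6 fibroblast markers with a row, some of which the target list also holds, 4 in the parental line and 5 in each resistant line had a mean below 0 log2 RPKM, and their summed RPKM lay between 4.44 and 14.65 in every sample. The 2 leukocyte markers with a row summed to between 0.67 and 1.96 RPKM in every sample. The part of these genes in the target results was not tested.

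Genes widely used as BMP targets, 17 of 20 with a row and the 5 members above left out, also differed between the clones. Against the parental line, 13 of the 17 were called in Ov4Carbo4 (9 higher and 4 lower) and 6 in Ov4Carbo7 (2 and 4), with medians of 1.04 and -0.24. In Ov4Carbo7 against Ov4Carbo4, 14 were called, 4 higher and 10 lower, with a median of -1.5. With 1 added to the RPKM, 9 were called there, where 10.5% of all genes were. In Ov4Cis 8 were called (3 higher and 5 lower) and in Ov4Carbo 9 (4 and 5), with medians of -0.13 and -0.09. With 1 added to the RPKM these counts were 4 in each, where 7.58% and 4.76% of all genes were called. They were 5 in each when genes with a mean log2 RPKM below 1 were left out, where 8.21% and 6.06% of the genes kept were called. Without these changes, 15.9%, 12.7%, 15.1% and 17% of all genes were called in Ov4Cis, Ov4Carbo and the 2 clones, with medians of 0.04, 0.03, 0.07 and 0.02. Between the clones 20.9% of all genes were called, 11.1% higher and 9.86% lower, with a median of -0.05. The transcription factor genes MSX1 and TBX2 were called higher in all 4 resistant lines, which share the parental samples. Of all genes, 1.73% were called higher in all 4. MSX1 had log2 RPKM values of 2.12, 2.48 and 2.82 in the parental line and 4.31, 4.68 and 4.56 in Ov4Cis. In Ov4Carbo, MSX1 had values of 4.03, 4.19 and 3.53, in Ov4Carbo4 4.69, 4.16 and 4.46, and in Ov4Carbo7 3.50, 3.65 and 3.29. TBX2 had log2 RPKM values of -0.37, -0.30 and 0.36 in the parental line and 0.96, 1.05 and 0.92 in Ov4Cis. In Ov4Carbo, TBX2 had values of 2.64, 2.23 and 2.67, in Ov4Carbo4 4.03, 3.17 and 3.91, and in Ov4Carbo7 1.39, 1.89 and 1.21. Every resistant sample was above every parental sample for both genes.

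TBX2 rose by 1.08, 2.62, 3.80 and 1.60 on the log2 scale in Ov4Cis, Ov4Carbo, Ov4Carbo4 and Ov4Carbo7, and MSX1 by 2.04, 1.45, 1.97 and 1.01. Without parental replicate 1 the changes of TBX2 in Ov4Cis (0.95) and of MSX1 in Ov4Carbo7 (0.83) were below the fold limit, as were TBX2 in Ov4Cis without parental replicate 2 (0.98) and MSX1 in Ov4Carbo7 without Ov4Carbo7 replicate 1 (0.998) or replicate 2 (0.92). Adding 1 to the RPKM gave 0.61 for TBX2 in Ov4Cis, 0.98 for TBX2 in Ov4Carbo7 and 0.89 for MSX1 in Ov4Carbo7, all under the fold limit. The title series term gave MSX1 in Ov4Carbo7 a change of 0.84, limma adjusted p = 0.138. Named after their values were seen, MSX2, DLX5 and ALPL are genes of bone and limb development. MSX2 had log2 RPKM values of 3.51, 3.80 and 3.96 in the parental line and 4.08, 3.79 and 4.09 in Ov4Cis. In Ov4Carbo, MSX2 had values of 3.89, 3.60 and 3.49, in Ov4Carbo4 6.66, 6.23 and 6.37, and in Ov4Carbo7 3.02, 3.17 and 3.06. Its Ov4Carbo4 samples were above all others, and it was lower in Ov4Carbo7 than in Ov4Carbo4 (log2 fold change -3.34 ± 0.15 SE, limma adjusted p = 1.60e-08). For DLX5 and ALPL too, the Ov4Carbo4 samples were above all others and the Ov4Carbo7 samples below, and the clones differed by -4.95 and -5.0 on the log2 scale. The 4 called genes of the list that were higher in Ov4Carbo7, also named after their values were seen, were RUNX1 (2.30), RUNX2 (2.18), TBX3 (1.40) and JUNB (1.05), and JUNB stands in the TGF-beta target list too.

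**Figure D5:**
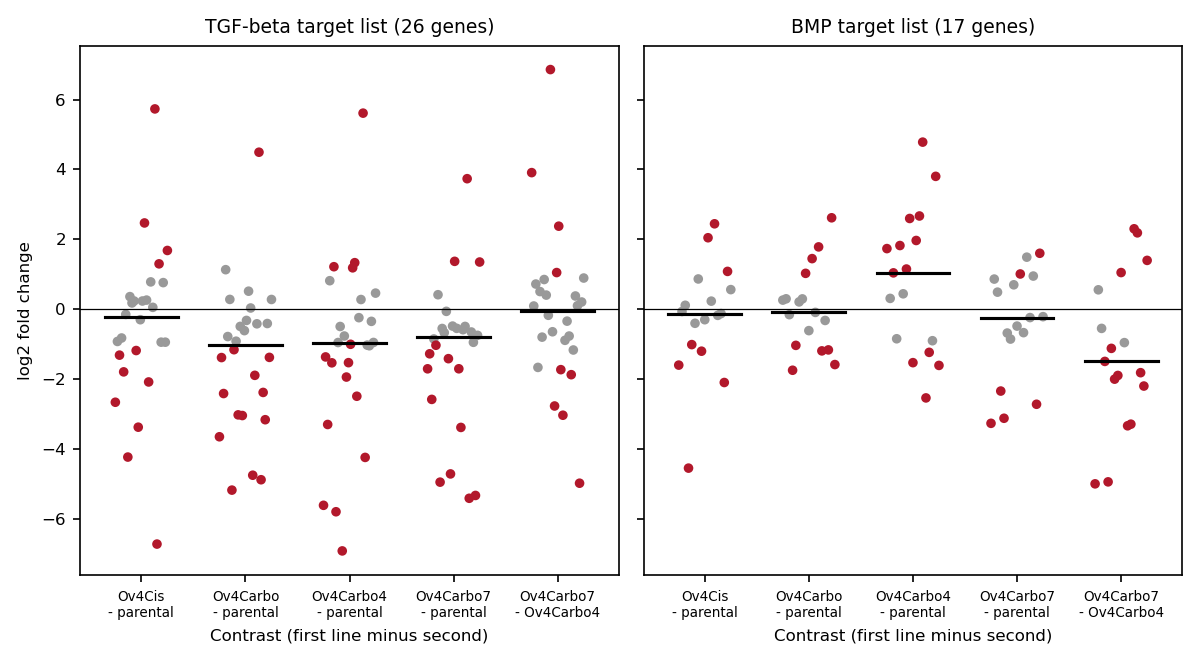
log2 fold change (vertical axis, each point 1 gene, red for called and grey for not called, bar for the list's median) of the TGF-beta target list (26 genes) and the BMP target list (17 genes) in 5 contrasts (horizontal axis). The BMP targets lie mostly above 0 in Ov4Carbo4 and mostly below 0 in Ov4Carbo7 against Ov4Carbo4, and the TGF-beta targets lie mostly below 0 against the parental line.

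The other genes of the pathway were described as 4 further lists. Of 36 further latency proteins, ligand activators, proteases and extracellular antagonists, 25 have a row, and 9, 11, 9 and 8 were called in Ov4Cis, Ov4Carbo, Ov4Carbo4 and Ov4Carbo7, of which 6, 10, 8 and 6 were lower. Among all genes the called shares were 15.9%, 12.7%, 15.1% and 17%, and the shares called lower were 7.41%, 6.93%, 7.7% and 7.75%. Leaving out genes with a mean log2 RPKM below 1 gave counts of 5 in Ov4Carbo, 5 in Ov4Carbo4 and 4 in Ov4Carbo7. Of the genes kept, 6.06%, 8.07% and 9.42% were called in these lines. With 1 added to the RPKM the counts were 4 in Ov4Cis and 7 in Ov4Carbo, where 7.58% and 4.76% of all genes were called. With a term for the title series they were 14 in Ov4Carbo4 and 13 in Ov4Carbo7, where 17.9% and 16.6% of all genes were called. FBN2, a microfibril protein that binds LTBPs and BMPs, FSTL1, a secreted BMP antagonist, ITGB6 and LRRC32, a cell-surface anchor of latent TGF-beta, were called lower in all 4. Of all genes, 1.65% were. FBN2 had log2 RPKM values of 5.49, 5.82 and 6.11 in the parental line and -4.71, -4.29 and -3.40 in Ov4Cis. In Ov4Carbo, FBN2 had values of 2.31, 2.17 and 2.69, in Ov4Carbo4 2.76, 2.30 and 3.14, and in Ov4Carbo7 2.75, 3.37 and 3.68. Every parental sample was above every resistant sample, and the Ov4Cis samples were the lowest by more than 5 log2 units. FBN2 fell in Ov4Cis (log2 fold change -9.94 ± 0.34 SE, limma adjusted p = 6.57e-10) and Ov4Carbo (log2 fold change -3.42 ± 0.34 SE, limma adjusted p = 1.47e-05). FBN2 also fell in Ov4Carbo4 (log2 fold change -3.07 ± 0.34 SE, limma adjusted p = 2.01e-05) and Ov4Carbo7 (log2 fold change -2.54 ± 0.34 SE, limma adjusted p = 7.37e-05). FSTL1 changed by -3.64, -2.98, -1.86 and -1.92 on the log2 scale in the same order. LRRC32 had parental values of -0.90, -0.93 and -1.40, so its changes start from a level near the low end, and with 1 added to the RPKM they were -0.39, -0.53, -0.51 and -0.41, all below the fold limit.

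Named after its values were seen, CHRD, which codes for the BMP antagonist chordin, had log2 RPKM values of 1.19, 0.77 and 0.70 in the parental line and 2.40, 2.33 and 1.51 in Ov4Cis. In Ov4Carbo, CHRD had values of 2.36, 1.69 and 1.31, in Ov4Carbo4 -0.81, -0.18 and -0.73, and in Ov4Carbo7 5.12, 4.72 and 4.05. The Ov4Carbo7 samples were above all others and the Ov4Carbo4 samples below all others. CHRD rose in Ov4Carbo7 (log2 fold change 3.74 ± 0.34 SE, limma adjusted p = 3.50e-06) and fell in Ov4Carbo4 (log2 fold change -1.46 ± 0.34 SE, limma adjusted p = 0.00434) against the parental line, and differed between the clones (log2 fold change 5.20 ± 0.34 SE, limma adjusted p = 2.41e-07). It was also called higher in Ov4Cis, a call lost without Ov4Cis replicate 1 (1.03, limma adjusted p = 0.0571) or replicate 2 (1.07, limma adjusted p = 0.0547). Adding 1 to the RPKM gave changes below the fold limit, -0.77 in Ov4Carbo4 (limma adjusted p = 0.0281) and 0.88 in Ov4Cis (limma adjusted p = 0.0144).

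Of 28 SMAD cofactors, adaptors, phosphatases and ubiquitin enzymes, 27 have a row, and 1, 1, 2 and 2 were called in Ov4Cis, Ov4Carbo, Ov4Carbo4 and Ov4Carbo7, all lower, with PMEPA1 among them in each line. In none of the 10 comparisons were 22 of the 27 called, and neither were 9891 of all 16604 genes. Among all genes, 7.41%, 6.93%, 7.7% and 7.75% were called lower in the 4 resistant lines. Of 10 further receptors and co-receptors, 6 have a row. TDGF1, a co-receptor for NODAL, was called higher in all 4 resistant lines, where 1.73% of all genes were. It had log2 RPKM values of -5.67, -5.89 and -7.51 in the parental line and 1.22, 2.15 and 1.91 in Ov4Cis. In Ov4Carbo, TDGF1 had values of -1.90, -1.35 and -1.30, in Ov4Carbo4 -1.75, -1.01 and -1.80, and in Ov4Carbo7 0.23, 0.26 and -0.07. Processed copies of this gene may share its reads, so its level is uncertain. After adding 1 to the RPKM its changes were 0.42 in Ov4Carbo and 0.42 in Ov4Carbo4. ACVRL1, the type I receptor ALK1 that pairs with endoglin in endothelium, was named after its values were seen and had log2 RPKM values of -0.04, -0.33 and -0.75 in the parental line and 3.21, 2.69 and 2.57 in Ov4Cis. In Ov4Carbo, ACVRL1 had values of 1.37, 0.43 and 0.60, in Ov4Carbo4 0.51, 0.52 and 0.23, and in Ov4Carbo7 2.44, 2.76 and 2.39. It was above the parental samples in all samples of the other lines, and rose in Ov4Cis (log2 fold change 3.19 ± 0.26 SE, limma adjusted p = 1.03e-06) and Ov4Carbo7 (log2 fold change 2.90 ± 0.26 SE, limma adjusted p = 2.96e-06). ACVRL1 was also called higher in Ov4Carbo. That call was lost in a fit of only the 2 lines (1.17, limma adjusted p = 0.0517), without Ov4Carbo replicate 1 (0.89) or parental replicate 3 (0.98), and with 1 added to the RPKM (0.63). Of 22 further ligands of the family, 4 have a row, and BMP6 was higher in Ov4Carbo7 than in Ov4Carbo4 (log2 fold change 1.14 ± 0.38 SE, limma adjusted p = 0.0233), a call lost without Ov4Carbo4 replicate 2 (0.94, limma adjusted p = 0.0892), Ov4Carbo7 replicate 1 (1.09, limma adjusted p = 0.0634) or Ov4Carbo7 replicate 3 (1.04, limma adjusted p = 0.0704). INHBE, which codes for the beta E subunit of the activin family, was named after its values were seen and had log2 RPKM values of 2.19, 0.12 and -0.76 in the parental line and -2.13, -6.11 and -4.86 in Ov4Cis. In Ov4Carbo, INHBE had values of -2.26, 1.81 and 3.30, in Ov4Carbo4 -2.38, -0.52 and -1.81, and in Ov4Carbo7 -0.12, 0.17 and -0.64. The Ov4Cis samples were below all parental samples, and the highest of them overlapped Ov4Carbo and Ov4Carbo4. INHBE fell in Ov4Cis (log2 fold change -4.89 ± 1.31 SE, limma adjusted p = 0.0108), from a level near the low end, and with 1 added to the RPKM its change was -1.28, limma adjusted p = 0.105. Without Ov4Cis replicate 2 the call was lost (-4.01, limma adjusted p = 0.05).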

How the data were processed

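RNA from 15 cultures (3 biological replicates of each of 5 lines) was captured by its polyA tail and sequenced, per the labels' protocols. The authors deposited 1 table of RPKM values after conditional quantile normalization and a threshold whose rule is not given in the sources used here, as the table's name says. The values are on a log scale, and log2 was taken as the base from the deposited values: multiplied by gene length and summed per sample, they exceeded the expected RPKM total by a factor of 1.55 to 1.65 in base 2 and of 9.03 to 9.97 in base e. The submitters' processing notes name BWA 0.7.15-r1140, HTSeq and the hg19 and GRCh37 builds, without their roles. The table holds no read counts, so depth is unknown and no count test was run. The 16604 Ensembl identifiers were matched to symbols, with 16448 matched, and the promoter sequences came from RefSeq. INHBA and FST are not analysed here.

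From the table, limma 3.58.1 in R 4.3.3 was fitted to all 16604 genes in the 15 samples with 1 coefficient per line, and p-values of each of the 10 pairwise contrasts and of the F-test were adjusted over the whole table (Benjamini-Hochberg). Every test is two-sided. The labels do not say that replicate numbers mark a shared batch. In 9 of the 10 pairs of lines, same-numbered replicates did not all deviate together. In Ov4Cis and Ov4Carbo7 all 3 did, with correlations of 0.26, 0.14 and 0.23. The fit was tested on simulated data. A call needs an adjusted p under 0.05 and a log2 fold change of 1 or more in size. Figures were drawn with matplotlib 3.10.9 in Python 3.11.15. Per-sample values are given for called members whose highest line mean is at least 1 log2 RPKM. Of the other pathway lists, genes called in the same direction in all 4 contrasts with the parental line are named, or else the 2 with the largest change among called genes with a line mean of at least 1 log2 RPKM. The members and lists were chosen with earlier results of these data known.

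Alternatives were a variance trend, centring on sample medians, leaving out genes of mean log2 RPKM below 1, adding 1 to the RPKM, fitting only the 2 lines compared, a block on the replicate number, a title-series term, and leaving out each sample in turn. Their use for the target and antagonist lists, and for other genes that are named, was chosen after seeing the data.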

Additional observations from a re-analysis of the deposited data

Results flagged for a closer look

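For 5 pathway genes, resistant lines were called in opposite directions against the parental line, and the difference between those lines is given as its own contrast. Each direct change equals the difference between the lines' changes against the parental line in the same fit. Its direction was therefore fixed by the choice of genes, and its adjusted p is not separate support. TMEM100 was called higher in Ov4Cis and Ov4Carbo4 and lower in Ov4Carbo and Ov4Carbo7. Its direct log2 fold changes were 6.90 for Ov4Cis against Ov4Carbo (limma adjusted p = 2.95e-05), 9.14 for Ov4Cis against Ov4Carbo7 (limma adjusted p = 2.90e-06), 5.74 for Ov4Carbo4 against Ov4Carbo (limma adjusted p = 1.30e-04) and -7.98 for Ov4Carbo7 against Ov4Carbo4 (limma adjusted p = 4.96e-06). TMEM100 was near the low end of the table in Ov4Carbo7, so the size of these differences is uncertain, and its call in Ov4Carbo depended on single samples. SMAD9, a SMAD of the BMP branch, was called lower in Ov4Cis and higher in Ov4Carbo and Ov4Carbo4, with direct log2 fold changes of -2.85 for Ov4Cis against Ov4Carbo (limma adjusted p = 7.32e-06) and -3.01 for Ov4Cis against Ov4Carbo4 (limma adjusted p = 3.12e-06). LTBP1, which binds latent TGF-beta, was called higher in Ov4Carbo4 and lower in Ov4Carbo and Ov4Carbo7, with 2.24 for Ov4Carbo4 against Ov4Carbo (limma adjusted p = 1.03e-05) and -3.24 for Ov4Carbo7 against Ov4Carbo4 (limma adjusted p = 2.86e-07). TGFB3 was called higher in Ov4Cis and lower in Ov4Carbo, with 2.65 for Ov4Cis against Ov4Carbo (limma adjusted p = 2.79e-05). ID3 was called higher in Ov4Carbo4 and lower in Ov4Carbo7, with -2.84 for Ov4Carbo7 against Ov4Carbo4 (limma adjusted p = 4.54e-05). In each of the 10 direct contrasts the samples of the line with the higher mean lay above those of the other line. In the same comparisons of lines, between 41% and 67.3% of all genes were separated in this way. The genes were picked for calls in opposite directions, so this separation is not separate support either.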

How the results depend on the processing

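The counts of members called in the 10 contrasts kept within 1.5 times their values under the variance trend, sample median centring, the fit of only the 2 lines compared and the title series term. The title series term, which rests on the Ov4Carbo samples alone, changed which members were called. Ov4Carbo4 against the parental line went from 11 higher and 5 lower to 6 higher and 8 lower, with 11 calls shared. In Ov4Carbo7 against the parental line 11 were called, 1 higher and 10 lower, and 7 of the 14 calls were kept. Leaving out genes of mean log2 RPKM below 1 gave 6 in Ov4Cis against the parental line, 7 in Ov4Carbo against the parental line, 8 in Ov4Carbo4 against Ov4Carbo and 9 in Ov4Cis against Ov4Carbo. That filter removes 8 of the 45 members and keeps 12037 genes. Of the genes kept, 8.21%, 6.06%, 8.27% and 6.98% were called in the same contrasts, in the same order. Adding 1 to the RPKM shrinks the fold changes of low genes. It gave 8 in Ov4Carbo against the parental line, 7 in Ov4Carbo4 against Ov4Carbo, 9 in Ov4Carbo7 against Ov4Carbo and 9 in Ov4Cis against Ov4Carbo7. Of all genes, 4.76% were then called in Ov4Carbo against the parental line, and 5.45% and 4.96% in Ov4Carbo4 and Ov4Carbo7 against Ov4Carbo. Leaving out 1 sample at a time moved 1 count by more than 1.5 times, that of Ov4Carbo4 against Ov4Carbo, which ranged from 8 to 13. Of the 136 calls of the members with per-sample values, 30 were lost with 1 added to the RPKM, 26 with the title series term, 7 in the fit of only the 2 lines, 0 under centring or the variance trend, and between 1 and 9 on leaving out a sample. With the title series term, 2 named genes changed direction: TAGLN in Ov4Cis against Ov4Carbo7 was 0.45 (limma adjusted p = 0.646) and BMP6 in Ov4Carbo7 against Ov4Carbo was -0.021 (limma adjusted p = 0.97), and the cause was not tested. Of the 30 same-numbered pairs of replicates, 11 had a correlation of their deviations over 0.1, with a range from -0.39 to 0.44, and all 3 were over 0.1 in 1 pair of lines, Ov4Cis and Ov4Carbo7. The replicate block left the counts as they were, with 11 in Ov4Cis against the parental line, 14 in Ov4Cis against Ov4Carbo7 and 42 members past the F-test. Among other named genes, the replicate block ended the calls of TAGLN (-1.31, limma adjusted p = 0.0735) and CCN2 (1.27, limma adjusted p = 0.053) in Ov4Cis against Ov4Carbo7 and of FSTL1 in Ov4Carbo7 against Ov4Carbo (1.06, limma adjusted p = 0.0582). Depth is unknown. Values below about 0 log2 RPKM limit the size of the fold changes of TMEM100, TGFB2, TGFB3, INHBB, NOG, GREM1, BMPR1B, BMP2 and SMAD9. Other named genes with such values include FBN2 in Ov4Cis, FN1 in Ov4Carbo4, INHBE in Ov4Cis, and TDGF1, ACVRL1 and LRRC32 in the parental line.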
